A study of Mus musculus with 8 samples.

Results

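The nuclear genes for the subunits of the mitochondrial respiratory chain were followed through pregnancy and birth in the mouse left ventricle. Members were the genes with a probe set annotated to 1 symbol that begins with Atp5, Uqcr, Cox4i to Cox8, Ndufv, Ndufs, Ndufc, Ndufb or Ndufa, together with Cyc1, Cycs and the 4 Sdh subunit genes. Symbols of pseudogenes and assembly factors were left out, and the probe set with the highest mean was kept for each gene. This gave 81 of the 22180 genes measured: 34 of complex I, 4 of complex II, 8 of complex III, 17 of complex IV, 17 of complex V and the cytochrome c gene Cycs. Tests were limited to genes with a group mean of 5.19 or more, which is the median of all log2 values. This held for 77 members and for 13872 genes in all. The other 4 members were Ndufs5, at 4.59 to 5.04 over the 8 arrays, Atp5j2, at 4.13 to 5.08, Cox8c, at 3.16 to 3.44, and Cox7b2, at 2.63 to 3.31, and they enter no count below. The member just inside the filter was Cox6b2, with a highest group mean of 6.03 and a lowest of 5.38.

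The tissue was left ventricle of female C57BL/6 mice of 3 to 4 months, in 4 reproductive states with 2 arrays each. The states were non-pregnant mice in diestrus, a phase of the estrous cycle (replicates 2 and 3), day 12 of pregnancy (replicates 2 and 3), day 19 of pregnancy (replicates 1 and 2) and day 1.5 after birth (replicates 2 and 4). The protocol gives the late group as 18/19 days, and 1 of the 3 pieces into which each ventricle was cut was used. The labels name no genetic change and no drug in any group, and they do not say which animals the samples came from, so the p-values measure only the spread between these samples. Values are log2 RMA intensities, and every difference below is on the log2 scale, the named state minus the state it is set against.

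Complexes I and II take electrons from NADH and succinate and hand them to ubiquinone, complex III passes them to cytochrome c, and complex IV passes them to oxygen. Complexes I, III and IV pump protons across the inner membrane, and complex V, the ATP synthase, lets them back to make ATP, which is how heart muscle obtains most of the ATP it uses for contraction. Most subunits are encoded in the nucleus; the 13 mitochondrially encoded subunits were not analysed here.

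As a check of the tissue label, all 15 cardiomyocyte markers listed for this purpose passed the filter, with a mean log2 level of 11.93 to 12.22 over the arrays. Day 19 replicate 2 stood apart: over all probe sets its correlation with the other arrays was 0.969 to 0.977, against 0.980 to 0.992 among the other 7. On that array 14 of 15 macrophage markers and 10 of 11 interferon response genes were above their diestrus mean, by medians of 1.43 and 2.49. The mean log2 level of the macrophage markers was 7.90 and 8.98 on day 19 replicates 1 and 2, against 7.77 and 7.82 in diestrus. On day 19 replicate 1 the medians were 0.09 and 0.15, while 7 of 8 atrial markers and 8 of 8 mesothelial markers were above theirs, by medians of 1.26 and 0.85. Most results on the day 19 group are therefore given by array or with and without replicate 2; a value without it sets day 19 replicate 1 alone against the other state.

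At day 19 most subunits stood slightly below diestrus: 71 of 77 members had a lower mean and 6 a higher one, with a median difference of -0.14, where 55.5% of all genes tested were lower and the median was -0.03. The shift came from 1 of the day 19 arrays. On replicate 2, 73 of 77 members were below their diestrus mean, with a median of -0.29, where 59.3% of all genes were lower with a median of -0.08. On replicate 1, 39 were below and 38 above, with a median of -0.0027. Without replicate 2 the day 19 group is that array alone and has the same counts, so the direction of the group's mean rests on replicate 2. The cardiomyocyte markers were lower on replicate 2 as well, 15 of 15 with a median of -0.19, as were 12 of 12 fibroblast markers, with a median of -0.53. So were 8 of 10 endothelial markers, with a median of -0.39, and 9 of 10 markers of vessel wall (mural) cells, with a median of -0.42. The macrophage markers were higher. The part of these cell types in the subunits' values was not tested. In a piece of bulk tissue, fewer cells of a type and less RNA per cell cannot be told apart.

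At day 12 and after birth the members as a group stayed near diestrus. At day 12, 32 members were lower and 45 higher with a median of 0.02, where 44.9% of all genes were lower and the median was 0.02. Post-partum, 35 were lower and 42 higher with a median of 0.03, where 50.6% of all genes were lower and the median was -0.0037. By array, the member medians were 0.05 and 0.0038 on the day 12 arrays and 0.04 and 0.0075 on the post-partum arrays.

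**Figure D1:**
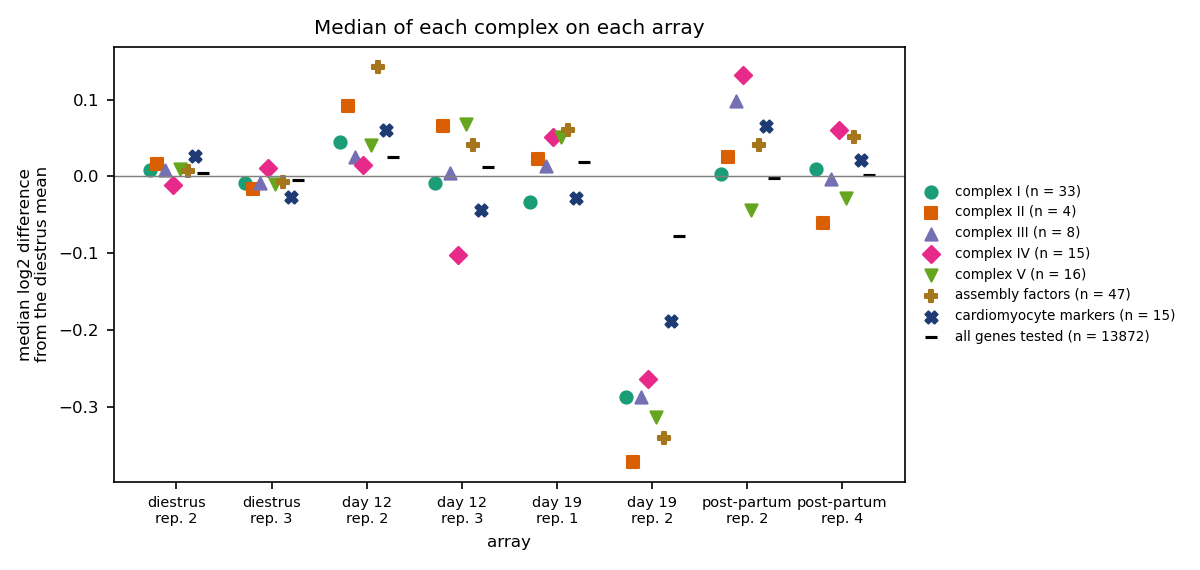
Each point is the median log2 difference from the diestrus mean, over the tested members of 1 complex, on 1 array (horizontal axis, the 8 arrays in the order diestrus, day 12, day 19, post-partum); assembly factors, cardiomyocyte markers and all genes tested are shown for comparison. On day 19 replicate 2 the medians of all 5 complexes lie between -0.37 and -0.26, and on the other 7 arrays between -0.10 and 0.13.

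The complexes were low together on day 19 replicate 2. Their medians there were -0.29 in complex I, -0.37 in complex II, -0.29 in complex III, -0.26 in complex IV and -0.31 in complex V, with 33 of 33, 4 of 4, 8 of 8, 12 of 15 and 15 of 16 members below the diestrus mean. On replicate 1 the same medians were -0.03, 0.02, 0.01, 0.05 and 0.05. The 4 members that were not lower on replicate 2 were the complex IV genes Cox6a1 (0.19), Cox8a (0.12) and Cox4i2 (0.01) and the complex V gene Atp5g2 (0.07). Counting Ndufa4, which biochemical work places in complex IV, with that complex left the day 19 medians at -0.12 for complex IV and -0.14 for complex I.

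No subunit passed the threshold of an adjusted p under 0.05 in any comparison. With limma, 0 of 77 members and 0.0% of all genes passed for day 12 against diestrus, and the same 0 and 0.0% held for day 19 against diestrus, for post-partum against diestrus, for day 19 against day 12 and for post-partum against day 19. At an unadjusted p under 0.05, 0 members and 2.31% of all genes were found for day 12 against diestrus. The count was 1 member and 7.29% for day 19 against diestrus, and 3 members and 6.62% for post-partum against diestrus. It was 1 member and 6.47% for day 19 against day 12, and 9 members and 8.25% for post-partum against day 19. The moderated F test over the 3 states also called 0 genes, and the smallest adjusted p of a member in it was 0.726, that of Ndufb10.

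Ranges that do not overlap between the arrays of a pair of groups were common among all genes. At day 19, 29 of 77 members (37.7%) were lower than diestrus on both arrays without overlap, where 20.4% of all genes were, and 3 (3.9%) were higher, where 16.4% of all genes were. Replicate 2 was below the diestrus mean for 73 of 77 members, so the first count turns mostly on replicate 1. The gap between the diestrus arrays had a standard deviation of 0.095 over the members and 0.264 over all genes. Smaller differences thus clear the diestrus range among the members, and their shares are not like for like with those of all genes. For day 12 against diestrus the counts were 12 lower (15.6% of all genes) and 19 higher (21.7%), and for post-partum against diestrus 17 lower (21.7%) and 20 higher (21.1%). For day 19 against day 12, 21 members were lower (23.2% of all genes) and 2 higher (16.3%). For post-partum against day 19, 1 member was lower (14.3% of all genes) and 27 were higher (19.0%). The post-partum comparison with day 19 uses the day 19 arrays described above: 61 of 77 members were higher post-partum, with a median of 0.17, and without day 19 replicate 2 that median was 0.02. Arrays without overlap on opposite sides of diestrus were found for 6 members that were lower post-partum and higher at day 12 (3.34% of all genes) and for 4 that were higher post-partum and lower at day 12 (2.08%).

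**Figure D2:**
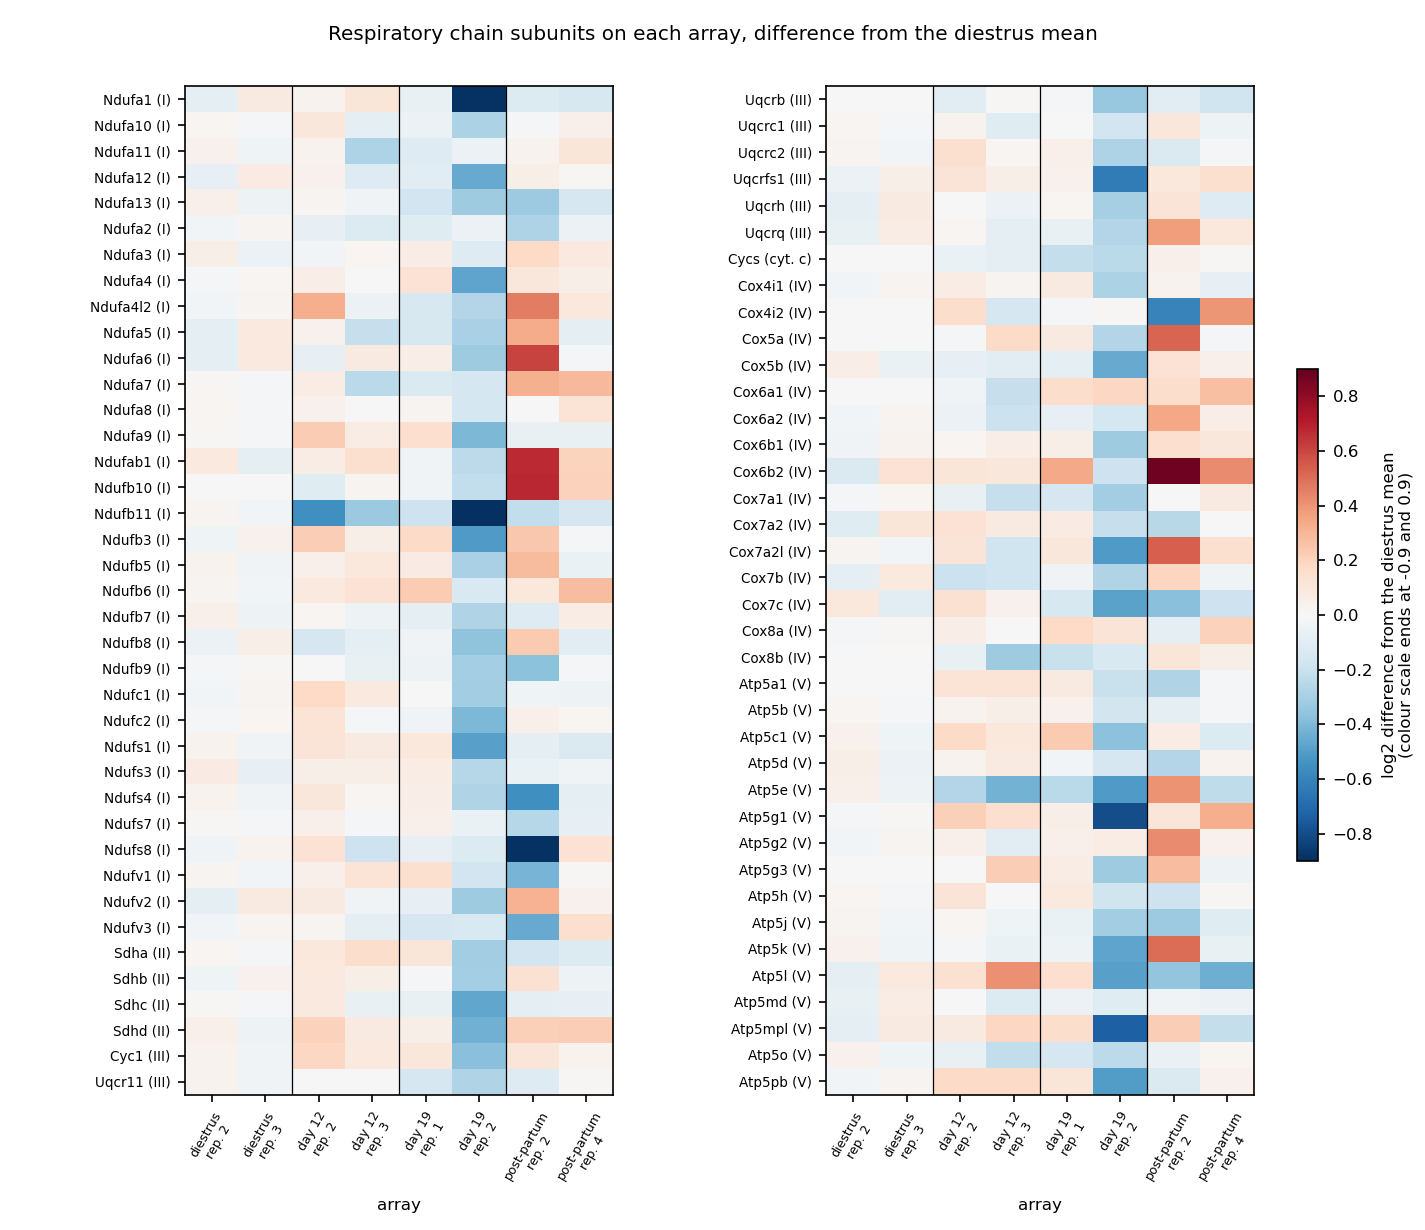
Each row is 1 of the 77 tested subunits with its complex in parentheses, each column 1 array, and the colour is the log2 difference from the mean of the 2 diestrus arrays (blue lower, red higher). The column of day 19 replicate 2 is blue in 73 of 77 rows; post-partum replicate 2 holds both the highest and some of the lowest values.

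In complex I, 2 accessory subunits of the membrane arm, Ndufb11 and Ndufa1, had the lowest day 19 differences of all members. Both genes lie on the X chromosome. Ndufb11 stood at 7.03 and 6.97 in diestrus, at 6.45 and 6.66 at day 12, at 6.81 and 6.04 at day 19 and at 6.78 and 6.85 post-partum. All 6 later arrays were below both diestrus arrays, and Ndufa2 was the only other member of which this was true. The share of all genes with this pattern was not counted, so it is not shown to be unusual. The difference of Ndufb11 was -0.44 ± 0.24 at day 12 (SE, limma), -0.57 ± 0.24 at day 19 (unadjusted p = 0.0430, adjusted p = 0.657) and -0.19 post-partum. Without day 19 replicate 2 the day 19 value was -0.19.

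Ndufa1 stood at 9.19 and 9.36 in diestrus, at 9.31 and 9.39 at day 12, at 9.21 and 8.39 at day 19 and at 9.15 and 9.14 post-partum. Only day 19 replicate 2 lay far from the others. The day 19 difference was -0.48 ± 0.25, and -0.06 without that array. The third X-linked member, the complex IV gene Cox7b, gave -0.15 at day 19, and -0.03 without that array.

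The other day 19 differences of complex I were smaller. Of its 33 tested members, 32 had a lower mean than diestrus, with a median of -0.14, and the exception was Ndufb6 at 0.05 (0.23 without replicate 2). The ranges did not overlap for 15 of them, all lower, where 20.4% of all genes were lower without overlap. On replicate 2 all 33 were below their diestrus mean, and on replicate 1, 20 were. Ndufa4l2, a paralogue of Ndufa4 that is induced by low oxygen, stood at 6.83 and 6.88 in diestrus, at 7.18 and 6.81 at day 12, at 6.71 and 6.59 at day 19 and at 7.31 and 6.95 post-partum. Ndufa4 stood at 11.45 and 11.49 in diestrus, at 11.53 and 11.48 at day 12, at 11.61 and 10.998 at day 19 and at 11.57 and 11.53 post-partum, which gave 0.13 on day 19 replicate 1 and -0.48 on replicate 2. Ndufa7 stood at 9.33 and 9.31 at day 19, against 9.47 and 9.44 in diestrus, and Ndufa13, also known as GRIM-19, at 11.41 and 11.26, against 11.62 and 11.54. For Ndufa4l2, Ndufa7 and Ndufa13 both day 19 arrays were low, and for Ndufa4 replicate 2 alone.

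After birth the subunits of complex I parted from each other, mainly on replicate 2. Their differences from the diestrus mean ran from -0.89 to 0.68 there, and from -0.15 to 0.29 on replicate 4. The wider spread on replicate 2 was not particular to them. Of all 13872 genes tested, 1283 were more than 0.5 below their diestrus mean there and 651 above, against 250 and 327 on replicate 4. Of the 77 members, 3 were more than 0.5 below on replicate 2 and 7 above, against 0 and 0 on replicate 4. Within complex I the highest mean differences from diestrus were those of Ndufb10 and Ndufab1. Ndufb10 is an accessory subunit of the membrane arm. Ndufab1 is the mitochondrial acyl carrier protein, which also serves fatty acid synthesis. Ndufb10 stood at 7.83 and 7.82 in diestrus, at 7.72 and 7.85 at day 12, at 7.80 and 7.60 at day 19 and at 8.50 and 8.03 post-partum, a post-partum difference from diestrus of 0.44 ± 0.18 (unadjusted p = 0.0399, adjusted p = 0.722). Ndufab1 stood at 7.36 and 7.18 in diestrus, at 7.33 and 7.42 at day 12, at 7.23 and 7.03 at day 19 and at 7.94 and 7.47 post-partum, a post-partum difference from diestrus of 0.44 ± 0.18 (unadjusted p = 0.0445, adjusted p = 0.722). The post-partum arrays were above the diestrus arrays for both genes, and replicate 2 was the higher of the pair each time. Without post-partum replicate 2 each of these differences was 0.20. Ndufa7 followed with 9.78 and 9.75 post-partum, a difference of 0.31, on which the post-partum arrays were alike.

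The lowest of complex I after birth were Ndufs8, a core subunit that carries iron-sulfur clusters, and Ndufs4, an accessory subunit whose loss causes Leigh syndrome in humans. Ndufs8 stood at 11.09 and 11.16 in diestrus, at 11.26 and 10.94 at day 12, at 11.05 and 11.004 at day 19 and at 10.24 and 11.26 post-partum. Post-partum replicate 4 was above the diestrus arrays and replicate 2 well below them, so that the difference of -0.38 ± 0.30 turned to 0.13 without replicate 2. Ndufs4 stood at 12.04 and 11.98 in diestrus, at 12.11 and 12.03 at day 12, at 12.07 and 11.74 at day 19 and at 11.46 and 11.92 post-partum, a post-partum difference from diestrus of -0.32 ± 0.19 that was -0.09 without replicate 2.

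The other core subunits measured, most of which hold the flavin and iron-sulfur path of the electrons, ran from -0.42 to 0.32 on the same post-partum array. On replicate 2, Ndufv1, which binds NADH and the flavin, gave -0.42 against its diestrus mean, Ndufs7 gave -0.26, Ndufs1 -0.08, Ndufs3 -0.06 and Ndufv2 0.32. On replicate 4 these values were 0.01, -0.07, -0.13, -0.03 and 0.04. Ndufv1, Ndufs7, Ndufs3 and Ndufv2 were closer to diestrus on replicate 4 than on replicate 2, and Ndufs1 was not. Ndufs7, which passes electrons to ubiquinone and had the highest mean of complex I, stood at 12.93 and 12.92 in diestrus, at 12.97 and 12.91 at day 12, at 12.97 and 12.87 at day 19 and at 12.67 and 12.85 post-partum.

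At day 12, Ndufa9, an accessory subunit near the ubiquinone site, was the highest of complex I. It stood at 11.23 and 11.20 in diestrus, at 11.45 and 11.28 at day 12, at 11.36 and 10.81 at day 19 and at 11.15 and 11.15 post-partum, a day 12 difference from diestrus of 0.15 ± 0.19. The rest of the complex lay between it and Ndufb11, with 14 members lower, 19 higher and a median of 0.01.

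In complex II, which links the citric acid cycle to the chain, all 4 subunits were higher than diestrus at day 12, with a median of 0.10, and all 4 lower at day 19, with a median of -0.17. Sdha, the flavoprotein that oxidises succinate, stood at 12.04 and 12.00 in diestrus, at 12.11 and 12.17 at day 12, at 12.13 and 11.71 at day 19 and at 11.84 and 11.89 post-partum. Both post-partum arrays were below, and both day 12 arrays above, the diestrus arrays. Sdhd, a membrane anchor, stood at 10.65 and 10.56 in diestrus, at 10.81 and 10.69 at day 12, at 10.66 and 10.18 at day 19 and at 10.82 and 10.83 post-partum. Its post-partum difference from day 19 was 0.41 ± 0.17 (unadjusted p = 0.0498, adjusted p = 0.589), and 0.16 without day 19 replicate 2. The other anchor Sdhc had the lowest day 19 difference of the complex, -0.27. It stood at 10.81 and 10.79 in diestrus, at 10.89 and 10.73 at day 12, at 10.74 and 10.34 at day 19 and at 10.71 and 10.73 post-partum. The iron-sulfur subunit Sdhb gave -0.16 at day 19. It stood at 11.12 and 11.20 in diestrus, at 11.24 and 11.21 at day 12, at 11.15 and 10.85 at day 19 and at 11.30 and 11.11 post-partum. Without day 19 replicate 2 none of the 4 differed from diestrus by more than the 0.11 of Sdha.

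In complex III, 8 of 8 members had a lower mean at day 19 than in diestrus, with a median of -0.15. The lowest was Uqcrfs1, the Rieske iron-sulfur protein, which stood at 8.76 and 8.09 at day 19, against 8.67 and 8.77 in diestrus. Replicate 1 lay within the diestrus range and replicate 2 below it. Cyc1, the cytochrome c1 heme protein, stood at 12.01 and 11.54 at day 19, against 11.94 and 11.88 in diestrus, with replicate 1 above both diestrus arrays and replicate 2 below them. Uqcrb, which contacts the ubiquinone site and had the highest mean of the complex, stood at 12.49 and 12.49 in diestrus, at 12.39 and 12.50 at day 12, at 12.48 and 12.15 at day 19 and at 12.40 and 12.32 post-partum. It and Uqcr11 were below diestrus on both day 19 arrays, with mean differences of -0.18 and -0.21, and of -0.01 and -0.15 without replicate 2. After birth Uqcrq was the highest, with 7.54 and 7.26 post-partum, against 7.10 and 7.23 in diestrus, and 0.40 ± 0.15 above day 19 (unadjusted p = 0.0308, adjusted p = 0.589), or 0.30 without day 19 replicate 2.

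Cytochrome c, the mobile carrier between complexes III and IV, was low on both day 19 arrays on its chosen probe set. Cycs stood at 12.11 and 12.12 in diestrus, at 12.06 and 12.03 at day 12, at 11.90 and 11.88 at day 19 and at 12.16 and 12.13 post-partum. Both day 19 arrays were below all others, and the difference from diestrus was -0.21 on replicate 1 and -0.24 on replicate 2. It is uncertain which transcripts this probe set measures: Cycs has 4 other probe sets, 2 of which hold identical values on every array. The day 19 differences of the 4 were -0.23, -0.39, -0.39 and -0.23. By array, the first stood at 10.87 and 10.53 at day 19, against 10.69 and 11.17 in diestrus. The identical ones stood at 10.66 and 10.16, against 10.74 and 10.86, and at 10.62 on post-partum replicate 4. The last stood at 6.36 and 6.43, against 6.61 and 6.64. Of the 4, only the last had both day 19 arrays below all others. In the day 12 comparison the 4 gave -0.24, 0.06, 0.06 and -0.03.

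**Figure D3:**
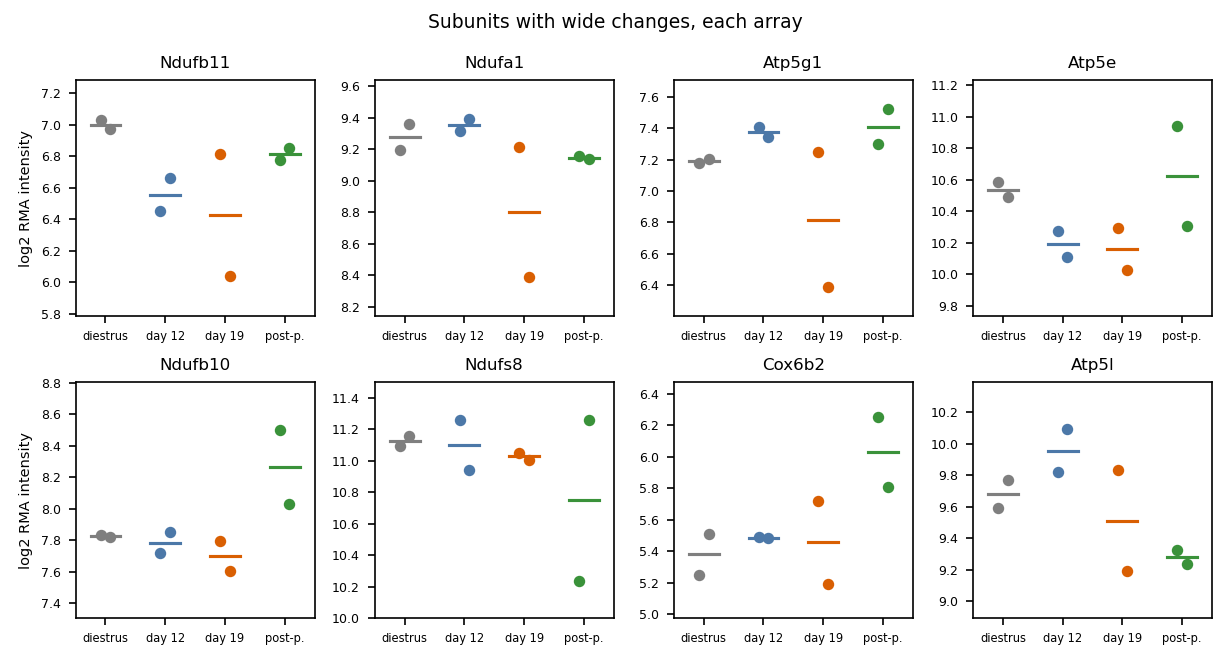
Log2 RMA intensity of 8 subunits of complexes I, IV and V on each array, by state (points, arrays; bars, means of 2 arrays; every panel spans 1.5 log2 units). Ndufb11, Ndufa1 and Atp5g1 are low on 1 day 19 array, Ndufs8 is low on 1 post-partum array, and Ndufb10 and Cox6b2 are high on both post-partum arrays.

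In complex IV, cytochrome c oxidase, 11 of 15 members had a lower mean at day 19 than in diestrus, with a median of -0.11, the smallest shift among the 5 complexes. The 4 with a higher mean were Cox6a1, Cox8a, Cox6b2 and Cox4i2. Cox6a1 stood at 11.65 and 11.64 in diestrus, at 11.61 and 11.44 at day 12, at 11.80 and 11.83 at day 19 and at 11.80 and 11.91 post-partum. All 4 arrays of day 19 and post-partum were above the diestrus arrays, and both day 12 arrays were below them. The differences from diestrus were -0.12 at day 12, 0.17 ± 0.13 at day 19 (adjusted p = 0.712) and 0.21 post-partum, and day 19 was 0.29 ± 0.13 above day 12 (unadjusted p = 0.0537, adjusted p = 0.675). Cox8a stood at 11.50 and 11.52 in diestrus, at 11.57 and 11.52 at day 12, at 11.69 and 11.63 at day 19 and at 11.43 and 11.72 post-partum, a day 19 difference from diestrus of 0.15 ± 0.14. Without day 19 replicate 2 the day 19 differences from diestrus were 0.16 for Cox6a1 and 0.18 for Cox8a.

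Several subunits of this complex come in isoform pairs, of which heart and skeletal muscle use Cox6a2, Cox7a1 and Cox8b, while Cox6a1, Cox7a2 and Cox8a are found in most tissues. At day 19 the muscle isoforms stood lower and 2 of their counterparts higher. Cox6a2 stood at 12.48 and 12.53 in diestrus, at 12.45 and 12.32 at day 12, at 12.44 and 12.35 at day 19 and at 12.86 and 12.57 post-partum. Cox8b stood at 12.35 and 12.34 in diestrus, at 12.28 and 12.02 at day 12, at 12.14 and 12.20 at day 19 and at 12.45 and 12.40 post-partum. Both day 19 arrays lay below the diestrus arrays for either gene. The difference of Cox6a1 minus that of Cox6a2 was 0.29 in the mean, 0.23 on replicate 1 and 0.35 on replicate 2. For Cox8a minus Cox8b it was 0.32 in the mean, 0.38 on replicate 1 and 0.26 on replicate 2. These relative differences, unlike the medians of the complexes, were present on both day 19 arrays. They were not tested. Markers of other cells were raised on both arrays too, the atrial and mesothelial ones on replicate 1 and the macrophage ones on replicate 2. On replicate 1, 3 of 3 adipocyte markers tested were also above their diestrus mean, by a median of 1.03. The part of the cell mix in the isoform differences was not tested.

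At day 12 the muscle isoforms had lower means than in diestrus too, and their counterparts differed from each other. Cox8b was among the lowest members, with a day 12 difference of -0.19 ± 0.14, and Cox8a minus Cox8b gave 0.23. Cox6a1 and Cox6a2 both gave -0.12 at day 12, so that Cox6a1 minus Cox6a2 was 0.0043. Cox7a1 stood at 12.48 and 12.52 in diestrus, at 12.44 and 12.30 at day 12, at 12.35 and 12.19 at day 19 and at 12.51 and 12.58 post-partum. Cox7a2 stood at 11.28 and 11.50 in diestrus, at 11.52 and 11.47 at day 12, at 11.47 and 11.19 at day 19 and at 11.14 and 11.39 post-partum. Cox7a2 minus Cox7a1 gave 0.24 at day 12, 0.17 at day 19 (0.23 on replicate 1 and 0.11 on replicate 2) and -0.17 post-partum. After birth Cox6a2 and Cox8b were above both diestrus arrays. The post-partum values of Cox6a1 minus Cox6a2 and of Cox8a minus Cox8b were 0.01 and -0.02 in the mean, with replicates 2 and 4 on either side of diestrus. Cox4i2, the counterpart of Cox4i1 known from lung and for its response to low oxygen, was close to diestrus at day 19. It stood at 8.15 and 8.13 in diestrus, at 8.30 and 7.99 at day 12, at 8.13 and 8.15 at day 19 and at 7.54 and 8.54 post-partum. Cox4i1 stood at 11.54 and 11.59 in diestrus, at 11.64 and 11.59 at day 12, at 11.65 and 11.29 at day 19 and at 11.60 and 11.50 post-partum.

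**Figure D4:**
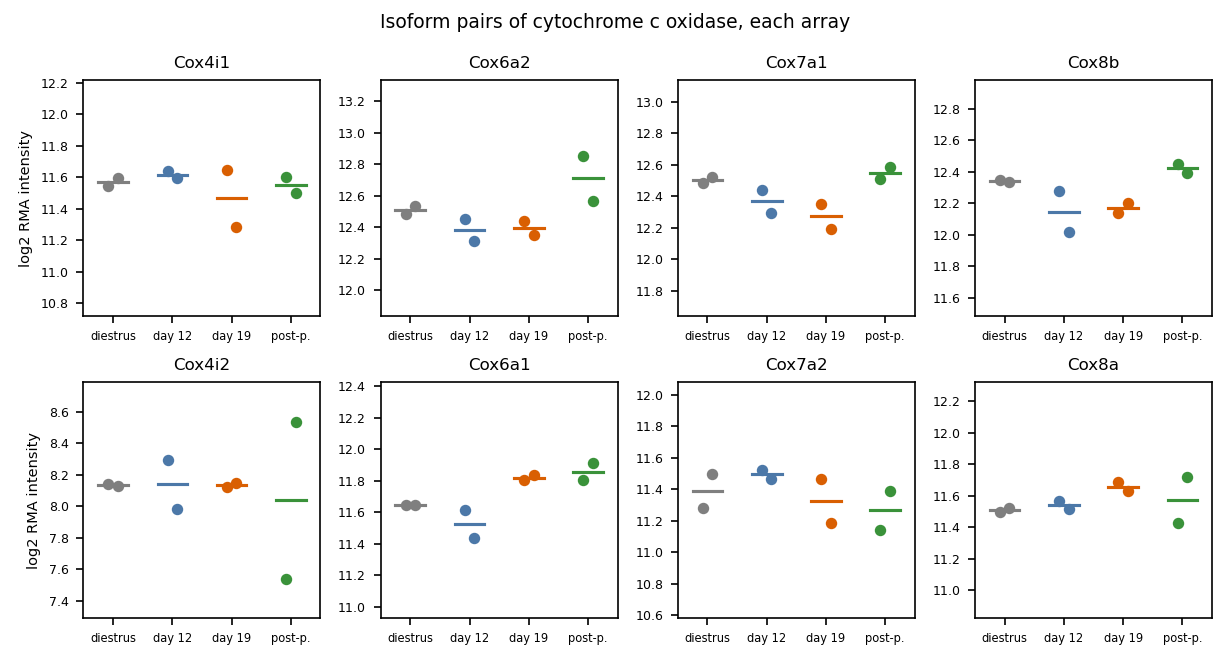
Log2 RMA intensity of 4 isoform pairs of cytochrome c oxidase on each array, by state (points, arrays; bars, means of 2 arrays; every panel spans 1.5 log2 units). The upper row holds Cox4i1 and the muscle isoforms, the lower row their counterparts; at day 19 Cox6a1 and Cox8a lie above their diestrus values and Cox6a2 and Cox8b below theirs.

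Among the comparisons with diestrus, the widest mean difference of a member was that of Cox6b2 after birth. It is the isoform of Cox6b1 known from testis. Cox6b2 stood at 5.25 and 5.51 in diestrus, at 5.49 and 5.48 at day 12, at 5.72 and 5.19 at day 19 and at 6.26 and 5.81 post-partum. Both post-partum arrays were above all others, and the diestrus and day 19 arrays spanned wide ranges. Against diestrus the post-partum difference was 0.65 ± 0.22 or 1.57-fold (unadjusted p = 0.0201, adjusted p = 0.722), and against day 19 it was 0.57 ± 0.22 (unadjusted p = 0.0339, adjusted p = 0.589), or 0.31 without day 19 replicate 2. Without post-partum replicate 2 the difference from diestrus was 0.43. The gene lies close to the filter, and its day 19 difference from diestrus of 0.08 was 0.34 on replicate 1 and -0.19 on replicate 2. Cox6b1 stood at 11.38 and 11.44 in diestrus, at 11.42 and 11.47 at day 12, at 11.46 and 11.09 at day 19 and at 11.56 and 11.51 post-partum, a post-partum difference from diestrus of 0.12.

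Of the remaining genes of complex IV, Cox7a2l has been studied for a part in joining complexes III and IV into supercomplexes, which were not examined here. It stood at 8.35 and 8.30 in diestrus, at 8.44 and 8.14 at day 12, at 8.42 and 7.81 at day 19 and at 8.86 and 8.47 post-partum. Its post-partum mean was 0.34 ± 0.23 above diestrus and 0.55 ± 0.23 above day 19 (unadjusted p = 0.0480, adjusted p = 0.589). Without day 19 replicate 2 the second difference was 0.24, and without post-partum replicate 2 the first was 0.14. Cox7c, a small structural subunit, had lower means late. It stood at 7.76 and 7.57 in diestrus, at 7.80 and 7.70 at day 12, at 7.51 and 7.18 at day 19 and at 7.29 and 7.48 post-partum. Its day 19 arrays were both below the day 12 arrays, by -0.40 ± 0.16 in the mean (unadjusted p = 0.0388, adjusted p = 0.675) and by -0.24 without day 19 replicate 2. Its post-partum difference from diestrus was -0.28 ± 0.16. Cox7b gave -0.19 at day 12. It stood at 11.87 and 12.05 in diestrus, at 11.77 and 11.78 at day 12, at 11.93 and 11.69 at day 19 and at 12.15 and 11.92 post-partum.

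In complex V, 15 of 16 members had a lower mean at day 19 than in diestrus, with a median of -0.15. Atp5g1, Atp5g2 and Atp5g3 encode the same mature subunit c, which forms the rotating ring, and they gave different values. Atp5g1 stood at 7.18 and 7.20 in diestrus, at 7.40 and 7.34 at day 12, at 7.25 and 6.39 at day 19 and at 7.30 and 7.52 post-partum. Only day 19 replicate 2 was below diestrus; the day 19 difference was -0.37 ± 0.26, and 0.06 without that array. Atp5g2 stood at 11.70 and 11.75 in diestrus, at 11.77 and 11.63 at day 12, at 11.77 and 11.79 at day 19 and at 12.15 and 11.76 post-partum, a day 19 difference from diestrus of 0.06 ± 0.16. Atp5g3 stood at 11.05 and 11.05 in diestrus, at 11.05 and 11.27 at day 12, at 11.12 and 10.74 at day 19 and at 11.33 and 11.01 post-partum. Its day 19 difference was -0.13, and 0.065 without replicate 2. The sum over the 3 genes cannot be formed from probe intensities.

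In the catalytic head of the enzyme, Atp5a1 and Atp5b, the alpha and beta subunits, were near diestrus in every state: their mean differences lay between -0.14 and 0.12. Atp5b, which holds the catalytic sites, stood at 13.08 and 13.05 in diestrus, at 13.09 and 13.12 at day 12, at 13.10 and 12.90 at day 19 and at 12.98 and 13.05 post-partum. The epsilon subunit gene Atp5e stood at 10.58 and 10.49 in diestrus, at 10.28 and 10.11 at day 12, at 10.29 and 10.02 at day 19 and at 10.94 and 10.31 post-partum. All 4 arrays of pregnancy were below the diestrus arrays, with differences of -0.34 ± 0.22 at day 12 and -0.38 ± 0.22 at day 19 (adjusted p = 0.672). Without day 19 replicate 2 the second value was -0.24. The gamma and delta subunit genes Atp5c1 and Atp5d gave -0.07 and -0.09 at day 19, and 0.23 and -0.03 without replicate 2.

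In the stalk and membrane part, Atp5l, the g subunit found where ATP synthases pair up, was the highest member at day 12 and the lowest post-partum. It stood at 9.59 and 9.77 in diestrus, at 9.82 and 10.09 at day 12, at 9.83 and 9.19 at day 19 and at 9.32 and 9.24 post-partum. Both day 12 arrays were above, and both post-partum arrays below, the diestrus arrays. The differences from diestrus were 0.27 ± 0.22 at day 12 and -0.40 ± 0.22 post-partum (unadjusted p = 0.108, adjusted p = 0.729). Atp5pb, the b subunit of the stalk, stood at 11.40 and 11.45 in diestrus, at 11.60 and 11.60 at day 12, at 11.54 and 10.92 at day 19 and at 11.30 and 11.46 post-partum. Atp5mpl, a small membrane subunit, had the widest gap of all members between the day 19 arrays, with 9.99 on replicate 1 and 9.10 on replicate 2.

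Agreement between the arrays of a state differed among the states. Over the 77 members, the gap between the arrays of a pair had a standard deviation of 0.095 for diestrus, 0.129 for day 12, 0.225 for day 19 and 0.312 for post-partum, where all genes tested gave 0.264, 0.239, 0.555 and 0.328. More than 0.3 separated the arrays for 0, 5, 38 and 21 members in that order of states, which is 0.0%, 6.49%, 49.4% and 27.3% of them, against 17.0%, 13.2%, 41.5% and 30.0% of all genes tested. At day 19 the gap ran 1 way, with replicate 1 higher for 70 of 77 members and a median gap of 0.30. After birth it ran both ways, with replicate 2 higher for 42 and lower for 35, from Ndufs8 at -1.02 to Atp5e at 0.63. The standard errors given here use 1 estimate of the spread for all 4 groups.

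**Figure D5:**
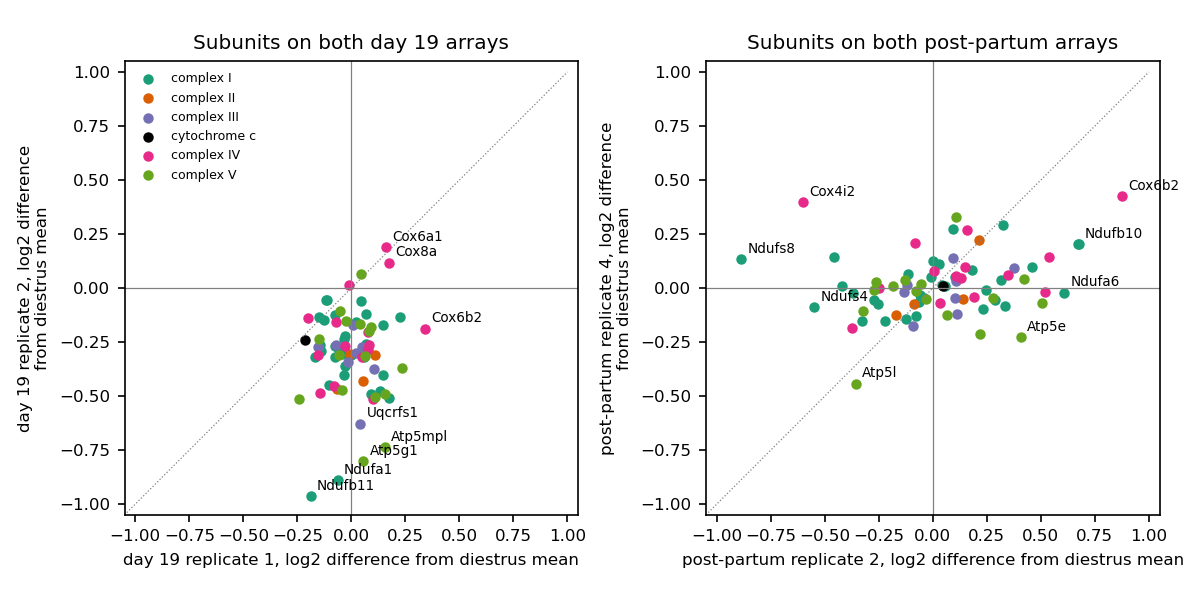
Each point is 1 of the 77 tested subunits, plotted by its log2 difference from the diestrus mean on the 2 arrays of a state (left, day 19; right, post-partum), coloured by complex; the dotted line marks equal values. At day 19 nearly all points lie below the line and below 0 on replicate 2, with Cox6a1 and Cox8a above 0 on both arrays; after birth the points spread along replicate 2.

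With day 19 replicate 1 left out, so that replicate 2 alone stood for day 19, limma called 8.89% of all genes against diestrus and 4 of the 77 members, all lower. These were Ndufb11 at -0.96 (adjusted p = 0.0109), Ndufa1 at -0.89 (adjusted p = 0.0125), Atp5g1 at -0.80 (adjusted p = 0.0231) and Uqcrfs1 at -0.63 (adjusted p = 0.0395). A single array is assumed here to vary like the arrays of the other groups, and the same genes on replicate 1 gave -0.19, -0.06, 0.06 and 0.04.

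Other probe sets of the same gene did not always follow the chosen one. Of the 77 tested members, 10 had 13 other probe sets between them. A second probe set of Atp5d gave -1.15 at day 12 and 0.61 post-partum, where the chosen one gave 0.06 and -0.12. The second probe set of Ndufa8 likewise gave -0.87 and 0.66, against 0.02 and 0.06 for the chosen one, that of Ndufa12 -0.39 and 0.48, against -0.04 and 0.03, and that of Ndufa11 -0.03 and 0.81, against -0.12 and 0.07. Cox5b gave 0.32 at day 12 on its second probe set and -0.09 on the chosen one, and Cox7b 0.24 and -0.19. The second probe set of Atp5g2 gave 0.10 at day 19 and 0.28 post-partum, in the same direction as the chosen one, and that of Atp5e gave -0.39 at day 12, -0.12 at day 19 and 0.32 post-partum. Several of these genes have processed pseudogenes or near-identical copies in the mouse genome, and which copy a probe set measures was not resolved.

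Assembly factors, which insert cofactors and join subunits but are not part of the finished complexes, had values in the same direction. At day 19, 40 of the 47 tested were lower than diestrus and 7 higher, with a median of -0.14, where 55.5% of all genes were lower. Of the 47, 1 reached an unadjusted p under 0.05, as did 7.29% of all genes, and 0 passed after adjustment. On replicate 2, 46 of 47 were lower with a median of -0.34, and on replicate 1, 16 were lower with a median of 0.06. At day 12, 36 of 47 were higher, with a median of 0.10, and 15 of the 16 factors of complex I among them, where 55.1% of all genes were higher. By array, 41 of 47 were higher on day 12 replicate 2, with a median of 0.14, and 30 on replicate 3, with a median of 0.04. Cox20, a chaperone of a catalytic subunit of complex IV, stood at 11.52 and 11.24 at day 19, against 11.73 and 11.78 in diestrus, a difference of -0.37 ± 0.15 (unadjusted p = 0.0387, adjusted p = 0.657) that was -0.23 without replicate 2. Higd1a, a small protein that binds complex IV and responds to low oxygen, stood at 9.07 and 8.09 post-partum, against 7.90 and 6.94 at day 19, a difference of 1.16 ± 0.37 (unadjusted p = 0.0154, adjusted p = 0.589) that was 0.68 without day 19 replicate 2.

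The transcriptional regulators of these genes were also followed, as a list of 21. At day 19, 20 were lower and 1 higher than diestrus, with a median of -0.15, where 55.5% of all genes were lower. Of the 21, 0 reached an unadjusted p under 0.05, where 7.29% of all genes did. On replicate 2, 20 of 21 were lower with a median of -0.28, and on replicate 1, 12 of 21 with a median of -0.01. Gabpa, a subunit of the ETS factor NRF-2, stood at 7.78 and 7.52 at day 19, against 8.07 and 7.87 in diestrus. Tfam, which packages and transcribes mitochondrial DNA, stood at 7.28 and 6.15 at day 19, against 6.97 and 7.30 in diestrus. Esrra, the nuclear receptor ERR alpha, stood at 8.23 and 7.89 at day 19, against 8.11 and 8.17 in diestrus. Nrf1, the factor that binds the motif described next, gave -0.07 at day 19 and -0.02 post-partum. After birth the coactivator Ppargc1a stood at 10.11 and 10.41, against 10.82 and 10.40 in diestrus, a difference of -0.36 ± 0.18 (unadjusted p = 0.0817). Its relative Pprc1 stood at 6.69 and 6.48, against 6.30 and 6.19, a difference of 0.34 ± 0.14 (unadjusted p = 0.0369, adjusted p = 0.722).

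Promoters were read to see which letters the members share that their selection did not use. RefSeq promoter windows on GRCm38.p6, from 250 bases before to 50 bases after the gene's start, matched 66 of the 81 members by symbol and were compared with those of 27025 genes, searching both strands. The palindromic core of the NRF-1 motif, CGCATGCG, was found in 10 members (15.2%), against 2.07% of these 27025 genes. That comparison set was not limited to genes tested on the arrays, and the base content of the windows was not matched. The ETS motif CCGGAAG was found in 17 (25.8%), against 9.93%, the YY1 motif AAGATGGC in 9 (13.6%), against 3.19%, and the ERR motif CAAGGTCA in 4 (6.06%), against 1.76%. TATAAA was found in 8 (12.1%), against 15.7%. The YY1 motif begins with letters that end the ETS motif and TATAAA, so that a stretch can hold both, and the other pairs share no more than an end letter. A match is a description of the window and not a site of binding.

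The NRF-1 core lay before the start of 8 of the 10 members, and these stretches are shown because the same 8 letters, in capitals, occur in genes of complexes I, IV and V and of cytochrome c whose day 19 values differ. Each is written 5′ to 3′ on the strand of its gene, from RefSeq on GRCm38.p6, with up to 26 bases on either side.
Ndufa11, chr17:56717677-56717736, + strand: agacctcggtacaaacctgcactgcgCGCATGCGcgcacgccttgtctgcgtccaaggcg
Ndufa8, chr2:36049339-36049373, - strand: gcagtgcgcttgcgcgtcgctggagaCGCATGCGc
Cox6a1, chr5:115349086-115349145, - strand: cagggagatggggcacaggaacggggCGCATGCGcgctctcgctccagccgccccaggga
Atp5g2, chr15:102671055-102671114, - strand: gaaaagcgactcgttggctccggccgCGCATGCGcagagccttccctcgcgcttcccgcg
Atp5j, chr16:84835090-84835149, - strand: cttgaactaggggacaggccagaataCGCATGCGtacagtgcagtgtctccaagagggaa
Atp5k, chr5:108434415-108434474, - strand: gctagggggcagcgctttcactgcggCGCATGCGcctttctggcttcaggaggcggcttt
Atp5l, chr9:44920950-44920992, - strand: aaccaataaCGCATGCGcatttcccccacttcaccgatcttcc
Cycs, chr6:50566597-50566656, - strand: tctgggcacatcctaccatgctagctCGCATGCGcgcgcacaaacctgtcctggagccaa

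The core began 241 bases before the start in Atp5l, 161 in Cox6a1, 147 in Atp5j, 61 in Cycs, 59 in Ndufa11, 49 in Atp5k, 41 in Atp5g2 and 9 in Ndufa8. In the other 2 members with it, Uqcrc1 and Uqcr11, it was not wholly before the start. Members that carry the core did not share a day 19 value. On replicate 2 they ran from -0.49 for Atp5l and -0.47 for Atp5k, through -0.24 for Cycs and -0.06 for Ndufa11, to 0.07 for Atp5g2 and 0.19 for Cox6a1. Their median there was -0.21, against -0.30 for the 53 tested members with a promoter window and without the core, and the medians with and without the motif were -0.27 and -0.29 for ETS, -0.31 and -0.29 for YY1 (8 with it) and -0.43 and -0.28 for ERR (3 with it). Ndufb11, Ndufa1, Atp5g1 and Uqcrfs1, named above for their values with replicate 2 alone, have none of the core, ETS, ERR and YY1 motifs in a window read here. No window was read for 15 members, and whether these genes are among them was not examined. The share of members without any of these motifs was not counted, so their absence is not shown to be unusual.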

How the data were processed

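RNA of left ventricle, 100 ng per sample, was measured on 8 one-colour expression arrays. The authors deposited log2 intensities per probe set, for which the submitters' processing notes name RMA and Affymetrix Expression Console. Software versions, library file and build: not given in the sources used here. RMA equalises the arrays, which hides any change in the total RNA of a cell.

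Of 34365 probe sets, 23521 had 1 gene symbol, 1814 several and 9030 were unnamed here. Entrez identifiers of 23328 matched the RefSeq gene table (GRCm38.p6), and 0 symbols changed. Rows with several symbols were left out, 8 of them with a symbol that fits the members' rule (among them Cox6c, Ndufb2, Ndufb4, Ndufs6 and Uqcr10), as were 10 pseudogene or assembly factor symbols. The highest-mean probe set of a gene was used.

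With limma 3.58.1 (lmFit, eBayes; R 4.3.3), 1 linear model with a mean for each group was fitted over the 8 arrays. Tests were two-sided, with Benjamini-Hochberg adjustment over the 13872 genes tested and a threshold of 0.05. The fit was tested on simulated data. The number of arrays limits the precision.

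Members, gene lists and the rule for named genes were chosen with earlier results of these data known. By that rule, values on every array are given for the 4 members with the largest difference in each direction against diestrus and 3 in each direction between successive states, for the member of highest mean in each complex and for isoform groups; other members shown by array, and the NRF-1 core stretches, were picked after their values were seen. Alternatives covered the filter, variance prior, array weights, probe sets, groups in the fit, scaling, the replicate block and each array left out. Figures were drawn with matplotlib 3.10.9.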

Additional observations from a re-analysis of the deposited data

Results flagged for a closer look

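For 10 subunits, both post-partum arrays lay on 1 side of both diestrus arrays and both day 12 arrays on the other side. Of the members, 6 were lower post-partum and higher at day 12, as were 3.34% of all genes tested, and 4 were higher post-partum and lower at day 12, as were 2.08%. The difference between the states was not tested in these cases. Both comparisons use the same diestrus arrays. Lower post-partum and higher at day 12 were Atp5l (post-partum minus day 12, -0.67), Sdha (-0.27), Atp5a1 (-0.26), Ndufa9 (-0.21), Ndufs1 (-0.20) and Ndufc1 (-0.18). Higher post-partum and lower at day 12 were Cox6a1 (0.33), Cox6a2 (0.33), Cox8b (0.28) and Cycs (0.10).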

How the results depend on the processing

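No member passed the threshold under any of the 8 settings other than leaving out an array, and of the named members' values in those settings 256 kept direction and side of the threshold and 1 did not: Cox7b at day 12 gave 0.025 with the mean of all its probe sets. In limma the count of genes called was 0 in every comparison, against 1 with array weights for day 12 against diestrus and 1 with a trended and robust variance for post-partum against day 19. With the replicate number as a replicate block, which only day 12 and diestrus allow, 18 genes were called, 0 of them members; the correlation of same-numbered deviations was 0.22 over 2 pairs, and neither it nor the labels show that the numbers pair the samples. With each array left out in turn, a lone array being assumed to vary like the others, genes called ranged from 0 to 1 for day 12, 0 to 1233 for day 19 and 0 to 3 for post-partum against diestrus, 0 to 1312 for day 19 against day 12, 0 to 872 for post-partum against day 19 and 0 to 663 in the F test; the high counts of day 19 come without its replicate 1. The member median ranged from 0.0038 to 0.05 at day 12, -0.29 to -0.0027 at day 19 and 0.0075 to 0.04 post-partum, from -0.31 to -0.0061 for day 19 against day 12 and from 0.022 to 0.32 for post-partum against day 19. Directions turned for Atp5g1 (-0.80 to 0.056) and Cox6b2 (-0.19 to 0.34) at day 19, for Ndufs8 post-partum (-0.89 to 0.13), and, for post-partum against day 19, for Ndufs8 (-0.79 to 0.23), Atp5l (-0.55 to 0.092) and Ndufs4 (-0.45 to 0.014). Except where an array left out is itself the difference, the cause was not tested. The F test was not run with the block or with only the groups compared.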

Other observations

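Single assembly factors and regulators outside the subunits gave the following values. Cox16, an assembly factor of complex IV, stood at 7.79 and 7.62 at day 19, against 8.07 and 8.23 at day 12, a difference of -0.44 ± 0.13 (limma, unadjusted p = 0.0111) that was -0.35 without day 19 replicate 2. Uqcc3, an assembly factor of complex III, stood at 6.45 and 6.04 at day 19, against 6.72 and 6.84 at day 12, a difference of -0.54 ± 0.16 (limma, unadjusted p = 0.0115) that was -0.33 without day 19 replicate 2. Surf1, whose loss causes a deficiency of complex IV in humans, stood at 7.56 and 7.61 post-partum, against 7.86 and 7.94 in diestrus, a difference of -0.32 ± 0.14. The mitochondrial transcription factor Tfb2m stood at 8.35 and 8.53 post-partum, against 8.92 and 8.74 in diestrus, a difference of -0.39 ± 0.19, and its relative Tfb1m gave -0.46 ± 0.23. For all 4 of Cox16, Uqcc3, Surf1 and Tfb2m the arrays of the 2 states did not overlap. Among all genes, 23.2% were lower without overlap for day 19 against day 12, and 21.7% for post-partum against diestrus. These 4 genes were named for small unadjusted p-values against diestrus in their lists, so the lack of overlap adds no separate support. For Cox16 and Uqcc3 the limma p-values were 0.0758 (day 12) and 0.0683 (day 19), and the rule did not choose the comparison printed for them. For day 19 against day 12, 3 of the 47 assembly factors and 6.47% of all genes had an unadjusted p under 0.05. None passed after adjustment over all genes.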
